A study of Mus musculus with 10 samples.

Results

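The genes described here make hyaluronan, cut it, bind it into the matrix and sense it at the cell surface. Named for this were 8 genes, Has1, Has2, Has3, Hyal1, Hyal2, Cd44, Vcan and Tnfaip6, and a gene counted as measured where the platform annotation gave a probe set exactly its symbol. This left 7 of the 8, each with 1 probe set, out of 19938 genes on the array. Both probe sets that carry the symbol Hyal1, the lysosomal hyaluronidase, also carry another gene's symbol, so Hyal1 is not analysed here. The genes were measured in 10 mouse thyroid tumours, 1 Affymetrix whole-transcript array for each. The 5 anaplastic thyroid carcinomas (ATC) had the genotype TPOCreER, BrafV600E and p53 -/-. The 5 papillary thyroid carcinomas (PTC) had TPOCreER and BrafV600E without the p53 label. All tumours came from a mixed C57BL/6;129SvJae background. TPOCreER is a tamoxifen-dependent Cre recombinase under the thyroid peroxidase promoter, which acts in thyroid follicular cells. The labels give no age, sex, tamoxifen schedule or time of tumour collection. The titles number the tumours as biological replicates, whether from separate mice or not is unstated, and the p-values measure only the spread between these samples. The p53 label and the tumour type change together and cannot be told apart.

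Hyaluronan is a long, unsulfated sugar polymer. The 3 synthases Has1, Has2 and Has3 sit in the plasma membrane, join UDP-glucuronic acid to UDP-N-acetylglucosamine and push the growing chain out of the cell. Hyal2, anchored at the cell surface, cuts long chains into fragments that lysosomal enzymes then digest. The proteoglycan versican (Vcan) and the secreted protein TSG-6 (Tnfaip6) build hyaluronan into loose, hydrated matrix, and CD44 is its main receptor on tumour cells and leukocytes.

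All values are log2 probe set intensities as deposited, differences are ATC minus PTC on the log2 scale, and means are given ± SD over 5 tumours per group. The tests are limma's, with Benjamini-Hochberg adjustment over 19938 genes and a threshold of 0.05. By this rule 4234 genes differed between the tumour types, 21.2% of those tested, with 11.5% higher and 9.72% lower in ATC. The median difference over all genes was −0.018. The values carry no detection calls, none of them is 0, and 10 arrays limit the precision. Of 11 thyroid follicular markers 0 rose and 3 fell in ATC, and their mean level per tumour was 6.64 to 8.16 in ATC and 7.77 to 8.96 in PTC. Thyroglobulin (Tg) averaged 9.54 ± 2.41 in ATC and 12.31 ± 0.65 in PTC, while Tshr, Duox2, Duoxa2 and Dio1 had ATC means under the lower quartile of all gene means (6.53). ATC replicate 2 lay nearest to the PTC arrays on the first principal component (−11.99, against −46.6 to −23.2 in the other ATC and 28.8 to 36.5 in PTC), and ATC replicate 5 had the lowest array weight (0.38).

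Of the 7 genes, Cd44 alone passed the test, and it fell in ATC. None of the other 6 passed, among them all 3 synthases and Hyal2, and 0 of the 7 rose. Vcan, the one gene besides Cd44 with an unadjusted p under 0.05, was higher on average in ATC, with an adjusted p of 0.100 in limma. One gene of 7 is 14.3%, against the 21.2% of all genes that passed, and the median difference of the 7 was −0.014.

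**Figure D1:**
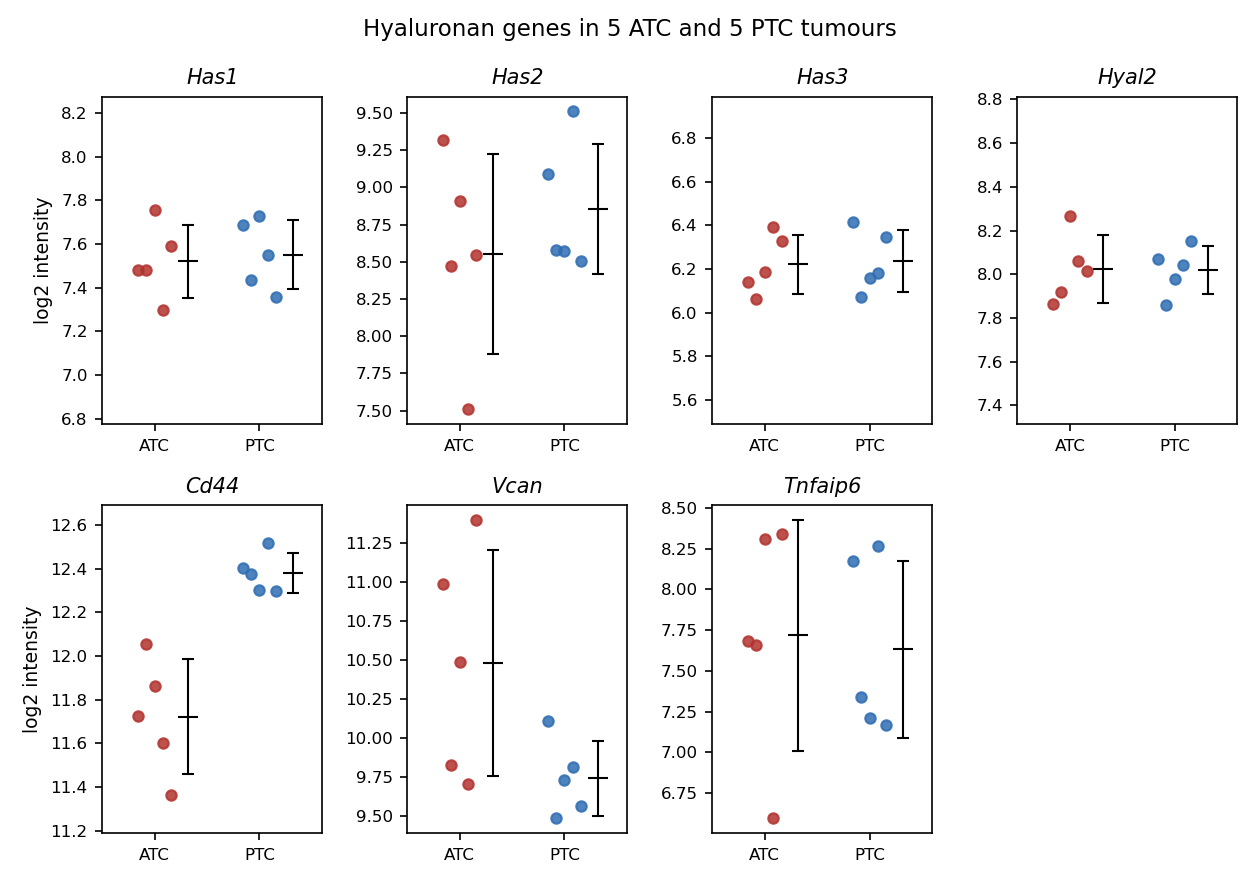
Log2 intensity of the 7 hyaluronan genes in each tumour, ATC at the left and PTC at the right of each panel. Each point is 1 tumour and the black bars are mean ± SD (n = 5). The Cd44 points do not overlap between the types, whereas those of the other 6 genes do. Vertical scales differ between panels and do not start at 0.

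Cd44 encodes the cell surface receptor through which tumour cells and leukocytes hold hyaluronan. Its probe set (10485405, chromosome 2) read 11.73, 12.06, 11.86, 11.60 and 11.36 in ATC replicates 1 to 5, against 12.40, 12.38, 12.30, 12.52 and 12.30 in PTC replicates 1 to 5. Every ATC tumour lay below every PTC tumour, a pattern found downwards in 7.74% of all genes. The mean was 11.72 ± 0.26 in ATC and 12.38 ± 0.09 in PTC, so that the level in ATC was 1.58-fold lower (95% interval 1.32 to 1.88-fold; difference −0.66, SE 0.12, adjusted p = 0.00252 in limma). The exact two-sided permutation test of this single value gave p = 0.00794, the smallest that 5 against 5 tumours allow. The call held with each of the 10 arrays left out in turn (differences −0.74 to −0.57, adjusted p 0.000849 to 0.0087 in limma). In whole tumours, fewer cells that carry a transcript and less of it per cell cannot be told apart.

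Cd44 is made by epithelial tumour cells, fibroblasts and leukocytes, and markers of these cells also differed between the tumour types. Of 10 epithelial markers 8 fell and 0 rose, and their mean per tumour was 8.04 to 9.47 in ATC and 10.20 to 10.37 in PTC. Of 12 macrophage markers 11 rose and 0 fell, with means of 10.44 to 11.20 in ATC and 9.05 to 9.59 in PTC. Among 12 fibroblast markers 1 rose and 5 fell, with means of 9.27 to 10.16 in ATC and 10.08 to 10.34 in PTC. Of 8 T cell markers 3 fell and 0 rose, with means of 6.59 to 7.13 in ATC and 7.08 to 7.45 in PTC. Of the other leukocyte and vessel lists, 2 of 5 B cell, 2 of 8 blood endothelial and 2 of 8 pericyte and smooth muscle markers fell, with 0 rising, and 0 of 7 neutrophil markers passed. Over all genes, 11.5% rose and 9.72% fell. The part of these cell types in the Cd44 difference was not tested.

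The genes whose pattern over the 10 tumours was most like that of Cd44 were Syne4, Gja5 and Anxa3. Likeness was the root mean square difference between log2 values centred on each gene's own mean, which came to 0.099 for Syne4, 0.101 for Gja5 and 0.102 for Anxa3. Syne4 encodes nesprin-4, an outer nuclear membrane protein of epithelial cells, Gja5 the gap junction protein connexin 40, and Anxa3 an annexin. They differed by −0.75, −0.66 and −0.64 between ATC and PTC, beside −0.66 for Cd44.

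The array has 1 probe set for the whole of Cd44, so the standard and variant isoforms were not separated. The windows around the transcription start of Cd44 and of Vcan are shown because these genes had the largest differences of the 7, in opposite directions. Each runs from 250 bases before to 50 bases after the start, 5′ to 3′ on the minus strand of the RefSeq build GRCm38.p6. The Cd44 window lies at chr2:102901616-102901915 and the Vcan window at chr13:89742463-89742762. Capitals mark matches, on either strand, to the GC box GGGCGG, the CCAAT box CCAAT, the TATA box TATAAA or the AP-1 site TGANTCA.
Cd44: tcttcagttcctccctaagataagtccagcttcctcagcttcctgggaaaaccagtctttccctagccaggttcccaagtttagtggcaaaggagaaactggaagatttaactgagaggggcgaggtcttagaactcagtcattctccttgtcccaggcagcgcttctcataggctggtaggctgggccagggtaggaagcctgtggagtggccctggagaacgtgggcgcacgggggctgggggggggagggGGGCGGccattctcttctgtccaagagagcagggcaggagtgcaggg
Vcan: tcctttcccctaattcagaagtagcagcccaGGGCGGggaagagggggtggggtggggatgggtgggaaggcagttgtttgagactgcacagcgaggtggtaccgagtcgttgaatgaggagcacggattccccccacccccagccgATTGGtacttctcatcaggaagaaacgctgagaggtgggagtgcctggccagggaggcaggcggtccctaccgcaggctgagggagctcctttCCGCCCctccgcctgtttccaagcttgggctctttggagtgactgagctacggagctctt
The Cd44 window held 1 GC box and none of the other 3 motifs, and the Vcan window held 2 GC boxes and 1 CCAAT box. Over 32851 windows of the same length in the table, 35.7% held a GC box, 37.4% a CCAAT box, 13.6% a TATA box and 7.81% an AP-1 site. Windows were matched for 5 of the 7 genes, and the AP-1 letters were found in that of Tnfaip6 but in none of the windows of Has1, Cd44, Hyal2 and Vcan.

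Among the synthases, Has2 varied most between tumours. Has2 makes long hyaluronan chains and is the synthase needed for heart formation in the mouse embryo. Its probe set (10428707, chromosome 15) read 9.32, 8.47, 8.91, 7.51 and 8.55 in ATC replicates 1 to 5, against 9.09, 8.58, 8.57, 9.51 and 8.50 in PTC replicates 1 to 5. The groups overlapped, with ATC replicate 4 lowest of all 10 tumours and PTC replicate 4 highest. The mean was 8.55 ± 0.67 in ATC and 8.85 ± 0.44 in PTC (difference −0.30, 95% interval −0.97 to 0.37, adjusted p = 0.548 in limma). With 1 array left out the difference ran from −0.49 without ATC replicate 1 (adjusted p = 0.288 in limma) to −0.042 without ATC replicate 4 (adjusted p = 0.923), and it was −0.14 without PTC replicate 4 (adjusted p = 0.815).

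Has1 and Has3 showed little spread. Has1 (probe set 10448117, chromosome 17) ranged from 7.30 to 7.75 in ATC, with a median of 7.48, and from 7.36 to 7.73 in PTC, with a median of 7.55. The difference was −0.031 (95% interval −0.25 to 0.19, adjusted p = 0.870 in limma). Has3, which makes shorter chains, ranged from 6.06 to 6.39 in ATC, with a median of 6.18, and from 6.07 to 6.42 in PTC, with a median of 6.18 (probe set 10575095, chromosome 8). Its difference was −0.014 (95% interval −0.21 to 0.18, adjusted p = 0.936 in limma). The Has3 mean lay under the lower quartile of all gene means, 6.53, where differences may be compressed. The changes of the 3 synthases were also set against each other within each tumour. The change of Has1 exceeded that of Has2 by 0.27 (95% interval −0.47 to 1.01), and that of Has3 exceeded it by 0.29 (−0.63 to 1.20). Has3 and Has1 differed in their change by 0.017 (−0.31 to 0.35). Exact permutation tests of these pairs gave adjusted p-values of 0.619, 0.629 and 0.897 over the 6 pairs tested, intervals that leave room for differences of either sign.

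Hyal2, the cell surface hyaluronidase, was level across the tumours. Its probe set (10588683, chromosome 9) ranged from 7.86 to 8.27 in ATC, with a median of 8.02, and from 7.86 to 8.15 in PTC, with a median of 8.04. The difference was 0.0049, with a 95% interval of −0.19 to 0.20 (adjusted p = 0.980 in limma), which bounds any change of the mean at 1.15-fold in either direction.

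Versican, encoded by Vcan, is a large chondroitin sulfate proteoglycan that binds hyaluronan at its amino-terminal end. Its probe set (10410931, chromosome 13) read 10.98, 9.83, 10.49, 9.71 and 11.39 in ATC replicates 1 to 5, against 10.11, 9.49, 9.73, 9.81 and 9.57 in PTC replicates 1 to 5. ATC replicates 1, 3 and 5 lay above all PTC tumours, and ATC replicates 2 and 4 lay within the PTC range. The mean was 10.48 ± 0.73 in ATC and 9.74 ± 0.24 in PTC (difference 0.74, 95% interval 0.098 to 1.38, adjusted p = 0.100 in limma; exact permutation p = 0.0794). The test was passed without ATC replicate 2 (difference 0.90, adjusted p = 0.0479 in limma) and without ATC replicate 4 (0.93, adjusted p = 0.0337). Without each of the other 8 arrays it was not (differences 0.51 to 0.83, adjusted p 0.103 to 0.203 in limma).

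Cd44 and Vcan differed in their change. The change of Cd44 minus that of Vcan was −1.40 (95% interval −2.36 to −0.43), with an exact permutation p of 0.00794 and an adjusted p of 0.0476 over 6 pairs. That p is the smallest 5 against 5 tumours allow, and it would be 0.0556 over the 7 pairs planned, of which the pair with Hyal1 could not be run. With any 1 array left out the adjusted p was 0.0952 in the exact test, and the pair did not pass. The smallest unadjusted p possible is then 0.0159, which the adjustment over 6 pairs raises unless other pairs are also small. The same comparison gave −0.65 (−1.34 to 0.036) for Tnfaip6 minus Vcan and −0.74 (−1.66 to 0.18) for Cd44 minus Tnfaip6, with adjusted p-values of 0.214 and 0.222 in exact permutation tests.

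Tnfaip6 encodes TSG-6, a protein secreted in inflammation and around the ovulated egg that moves the heavy chains of inter-alpha-inhibitor onto hyaluronan. Its probe set (10472050, chromosome 2) read 7.68, 7.66, 8.31, 6.60 and 8.34 in ATC replicates 1 to 5, against 8.17, 7.34, 7.21, 8.26 and 7.17 in PTC replicates 1 to 5. As with Has2, ATC replicate 4 was the lowest of all tumours, and PTC replicates 1 and 4 were the highest of the PTC. The difference of the means, 7.72 ± 0.71 in ATC and 7.63 ± 0.54 in PTC, was 0.086 (95% interval −0.66 to 0.83, adjusted p = 0.893 in limma). In 6 of the 7 genes the SD was larger in ATC than in PTC, as it was in 68.6% of all genes.

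PTC replicates 1 and 4, highest of the PTC in Has2 and Tnfaip6, also had the highest means of 6 of the 13 marker lists among the PTC, those of skeletal muscle, parathyroid, neutrophils, fibroblasts, macrophages and lymphatic endothelium. The mean of 8 muscle markers was 9.18 and 9.26 in these tumours and 6.97 to 7.98 in the other 3 PTC, and it was 7.26 to 8.59 in ATC. The mean of 2 parathyroid markers was 10.24 and 10.03 in them and 5.62 to 8.88 in the other 3 PTC, and it was 5.47 to 9.71 in ATC. The neutrophil mean was 7.91 and 8.44 in them and 6.44 to 7.44 in the other 3 PTC, and it was 6.59 to 7.34 in ATC. The other 3 lists were closer, with fibroblast means of 10.34 and 10.22 against at most 10.16, macrophage means of 9.48 and 9.59 against at most 9.45, and lymphatic means of 7.77 and 7.68 against at most 7.59 in the other PTC. Lyve1 is in the lymphatic list, and it read 8.34 and 8.94 in PTC replicates 1 and 4 and at most 8.11 in the other 3 PTC. The lymphatic rank thus rests partly on a hyaluronan receptor gene. None of the muscle, parathyroid and neutrophil markers passed the test between ATC and PTC. Among the ATC, Has2 was highest in replicate 1 (9.32), which had the lowest muscle mean (7.26). Tnfaip6 was highest in ATC replicate 5 (8.34), which had the highest muscle mean (8.59) and the lowest parathyroid mean (5.47) of the ATC. ATC replicate 2, with the highest parathyroid mean of the ATC (9.71), read 8.47 in Has2 and 7.66 in Tnfaip6. The part of these cells and tissues in Has2 and Tnfaip6 was not tested. Without both tumours, a comparison chosen after the data were seen, Cd44 differed by −0.60 (adjusted p = 0.0282 in limma), Has2 by −0.0026 (adjusted p = 0.997) and Tnfaip6 by 0.48 (adjusted p = 0.462).

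**Figure D2:**
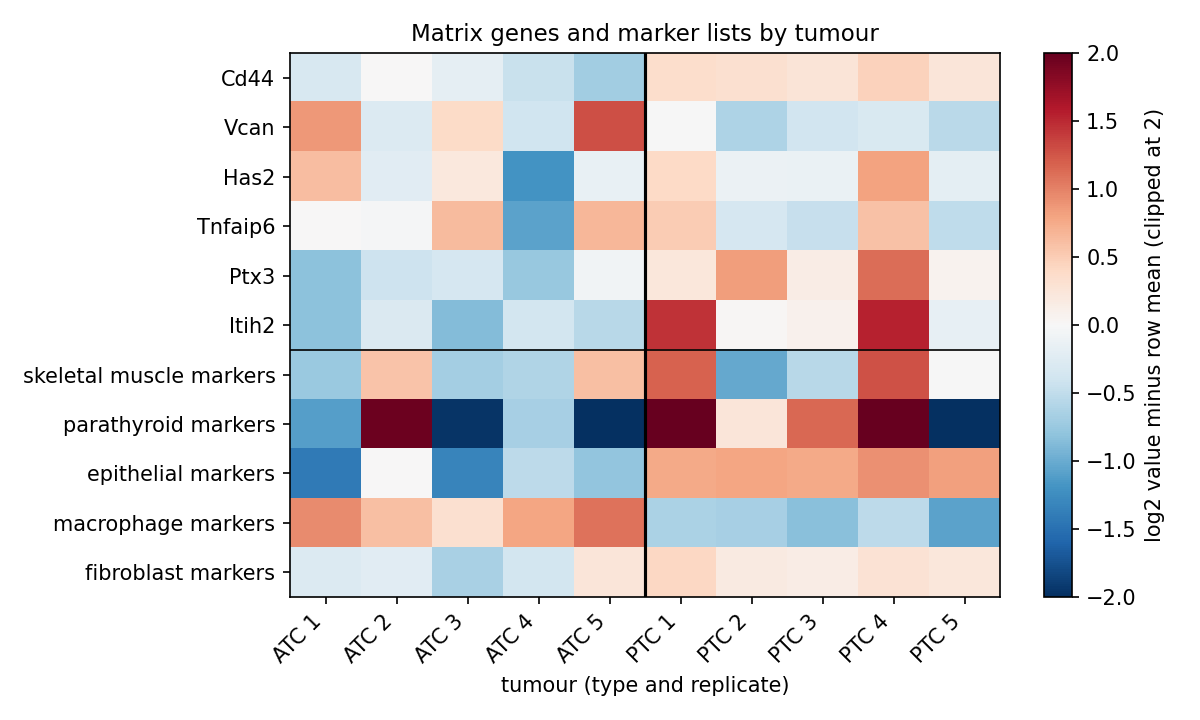
Log2 values of 6 matrix genes (upper rows) and mean log2 values of 5 marker lists (lower rows) in each tumour, each row centred on its mean over the 10 tumours, ATC columns left of PTC columns. Red is above and blue below the row mean, with colours clipped at 2. PTC 1 and PTC 4 are red in Has2, Tnfaip6, Itih2 and the muscle and parathyroid rows, and ATC 4 is the deepest blue in Has2 and Tnfaip6. Among the ATC columns, ATC 1 and ATC 3 are also red in Has2, and ATC 3 and ATC 5 in Tnfaip6. ATC 2 and ATC 5 are red in the muscle row, and ATC 2 in the parathyroid row.

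Outside the 7 genes, 82 genes of the hyaluronan pathway were listed and 77 measured, in 6 lists. Of the 77, 13 rose, 12 fell and 52 did not pass, with a median difference of −0.016. The 25 calls are 32.5% of these genes, against 21.2% of all genes. The lists were chosen with earlier results of these data known, so these shares cannot show an excess of calls in the pathway. By list, the calls were 50% of the UDP-sugar genes, 55.6% of the other receptors and 38.9% of the CD44-related genes. The breakdown (20%), binding and assembly (20%) and versican-related (23.5%) lists were near the share of all genes. Without PTC replicates 1 and 4 together 17 of the 77 passed, as 2379 of all genes did in place of 4234, and among the genes named below the calls of Gfpt1, Gnpnat1, Gusb, Adamts9, Adamts15, Met, Khdrbs1 and Rbm24 ended (adjusted p 0.0503 to 0.227 in limma).

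**Figure D3:**
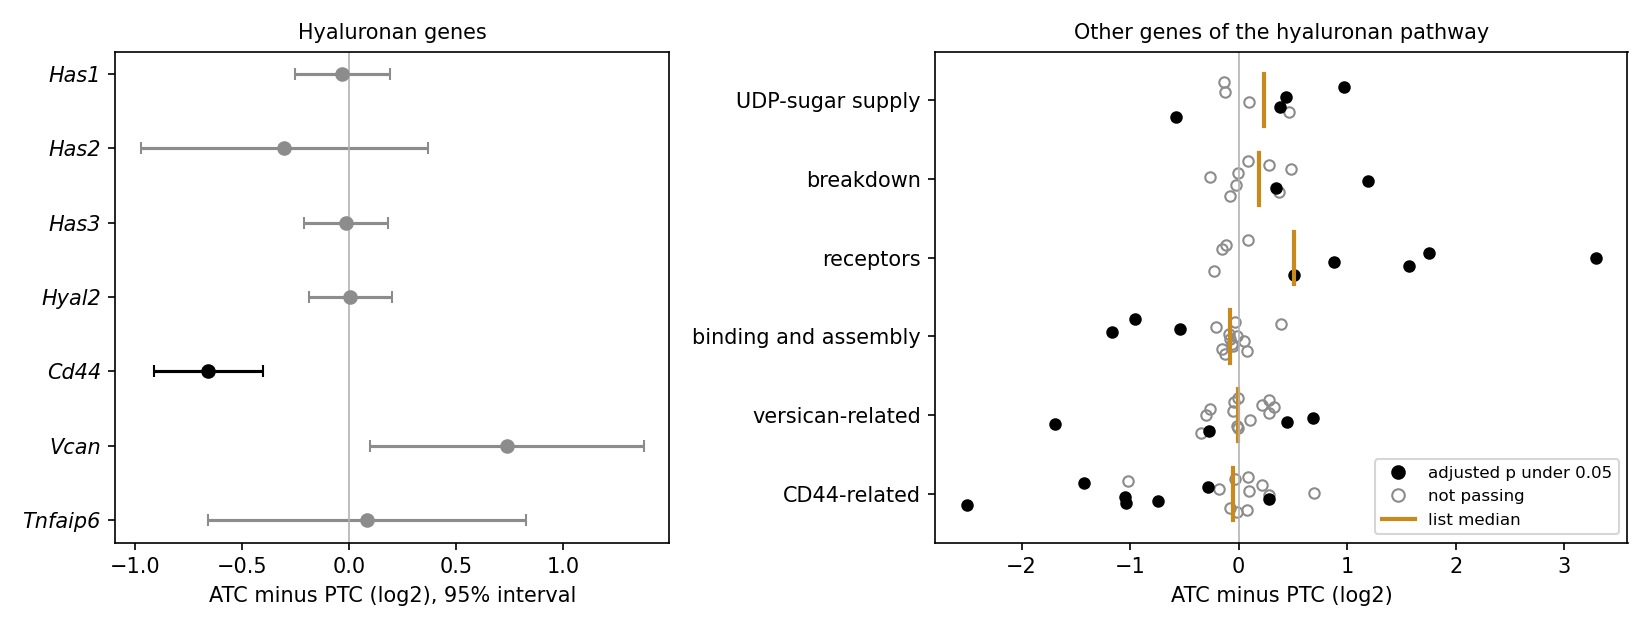
Left, ATC minus PTC differences of the 7 hyaluronan genes with 95% intervals from limma, black for Cd44, which passed, and grey for the other 6. Right, differences of the 77 other pathway genes by list, filled points for an adjusted p under 0.05 and a bar at each list's median. The receptor list has the highest median, 0.50, and its 5 filled points lie right of 0.

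Of 8 genes listed for making or moving UDP-sugars, 3 rose, 1 fell and 4 did not pass, with a median of 0.23. Ugdh, the dehydrogenase that makes UDP-glucuronic acid, read 10.27, 10.09, 10.24, 10.12 and 10.05 in ATC, against 9.17, 9.37, 9.16, 9.27 and 8.97 in PTC. The groups did not overlap, and the level in ATC was 1.95-fold higher (difference 0.97, SE 0.085, adjusted p = 6.69e-05 in limma). Gfpt1, which encodes the first and rate-limiting enzyme of the hexosamine branch that yields UDP-N-acetylglucosamine, fell by 0.58 (10.02 ± 0.27 in ATC and 10.61 ± 0.10 in PTC, adjusted p = 0.00586), also without overlap. Slc35d1, a transporter of UDP-glucuronic acid and UDP-N-acetylgalactosamine into the endoplasmic reticulum, rose by 0.44 (adjusted p = 0.0312), and Gnpnat1, a later enzyme of the hexosamine branch, rose by 0.38 (adjusted p = 0.0429). Gfpt2, which encodes a second form of the Gfpt1 enzyme, differed by 0.46 (adjusted p = 0.334), and Ugp2, Pgm3 and Uap1 by −0.14, 0.091 and −0.13. Without PTC replicates 1 and 4 together, Gfpt1 differed by −0.54 (adjusted p = 0.0503 in limma). The Slc35d1 call ended without ATC replicate 1 or 3 or PTC replicate 2, 3 or 5 (0.38 to 0.41, adjusted p 0.0682 to 0.0788). That of Gnpnat1 ended without any single array except ATC replicate 2 (0.31 to 0.41, adjusted p 0.0564 to 0.0983).

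Of 10 other genes listed for breakdown of hyaluronan or related sugar chains, 2 rose, 0 fell and 8 did not pass, with a median of 0.18. Hpse, the heparanase gene, whose enzyme cuts heparan sulfate, was 8.81 ± 0.62 in ATC and 7.62 ± 0.17 in PTC (difference 1.19, adjusted p = 0.00567 in limma). Gusb, the lysosomal beta-glucuronidase that trims hyaluronan fragments, was 9.88 ± 0.18 in ATC and 9.54 ± 0.13 in PTC (difference 0.34, adjusted p = 0.0292). The Gusb call ended without ATC replicate 2 or 5 or PTC replicate 1, 2, 3 or 4 (0.28 to 0.35, adjusted p 0.0536 to 0.0726). Hyal3, Cemip and Cemip2 did not pass. Hyal3 differed by −0.27 (adjusted p = 0.0766), Cemip by −0.077 (adjusted p = 0.776) and Cemip2, a surface protein with hyaluronidase activity in the mouse, by 0.37 (adjusted p = 0.213). Hyal3 passed without PTC replicate 2 (−0.34, adjusted p = 0.0189 in limma).

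The other receptors gave the largest rises. Of 9 measured, 5 rose, 0 fell and 4 did not pass, with a median of 0.50. Lyve1, the hyaluronan receptor of lymphatic vessels and of some tissue macrophages, read 12.53, 11.18, 11.29, 10.63 and 12.16 in ATC, against 8.34, 8.11, 8.11, 8.94 and 7.84 in PTC. The groups were more than 1 unit apart, and the level in ATC was 9.79-fold higher (95% interval 5.89 to 16.3-fold, adjusted p = 0.000147 in limma). Stab1, a scavenger receptor of macrophages and sinusoidal endothelium, was 9.57 ± 0.67 in ATC and 7.81 ± 0.16 in PTC (difference 1.76, adjusted p = 0.00102), and Stab2, the hyaluronan-clearing receptor of liver sinusoids, differed by −0.15 (adjusted p = 0.139). Layn, which encodes the hyaluronan-binding membrane protein layilin, rose by 0.87 (9.26 ± 0.31 in ATC and 8.39 ± 0.15 in PTC, adjusted p = 0.0015). C1qbp, a mainly mitochondrial protein that also binds hyaluronan, rose by 0.50 (adjusted p = 0.00518).

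Markers of lymphatic endothelium other than Lyve1 did not pass, with Prox1 at −0.21 (adjusted p = 0.264 in limma), Flt4 at −0.088 (adjusted p = 0.565) and Pdpn at −0.26 (adjusted p = 0.536). Reln, also of this list, differed by −0.19 (adjusted p = 0.514), so every lymphatic marker but Lyve1 was lower on average in ATC, without passing. Prox1 averaged 5.63 in ATC and 5.84 in PTC, and Flt4 6.49 in ATC and 6.58 in PTC. Both Prox1 means and the Flt4 mean in ATC lie under the lower quartile of gene means, 6.53, where differences may be compressed. With Lyve1 counted, 1 of 5 lymphatic markers rose. The list mean, 7.81 to 8.62 in ATC and 7.41 to 7.77 in PTC, includes Lyve1 and is raised in ATC by it. The macrophage markers, 11 of 12 of which rose, are given above. Their part in the Lyve1, Stab1 and Layn differences was not tested.

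Hmmr, which encodes a hyaluronan-binding protein that is also a spindle component made in dividing cells, read 8.64, 9.02, 8.02, 6.94 and 8.98 in ATC, against 6.74, 6.99, 6.75, 6.80 and 6.50 in PTC. ATC replicate 4 lay within the PTC range and the other 4 above it (difference 1.56, SE 0.34, adjusted p = 0.00714 in limma). All 7 measured markers of cycling cells rose, and their mean was also lowest in ATC replicate 4 among the ATC, 8.32 against 9.05 to 9.64 in the others, with 7.71 to 8.09 in PTC. ATC replicate 4 was likewise the lowest of the ATC in Lyve1 (10.63) and Layn (8.76), though not in Stab1 (9.30, against 8.86 in ATC replicate 3). The part of the share of cycling cells in the Hmmr difference was not tested.

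**Figure D4:**
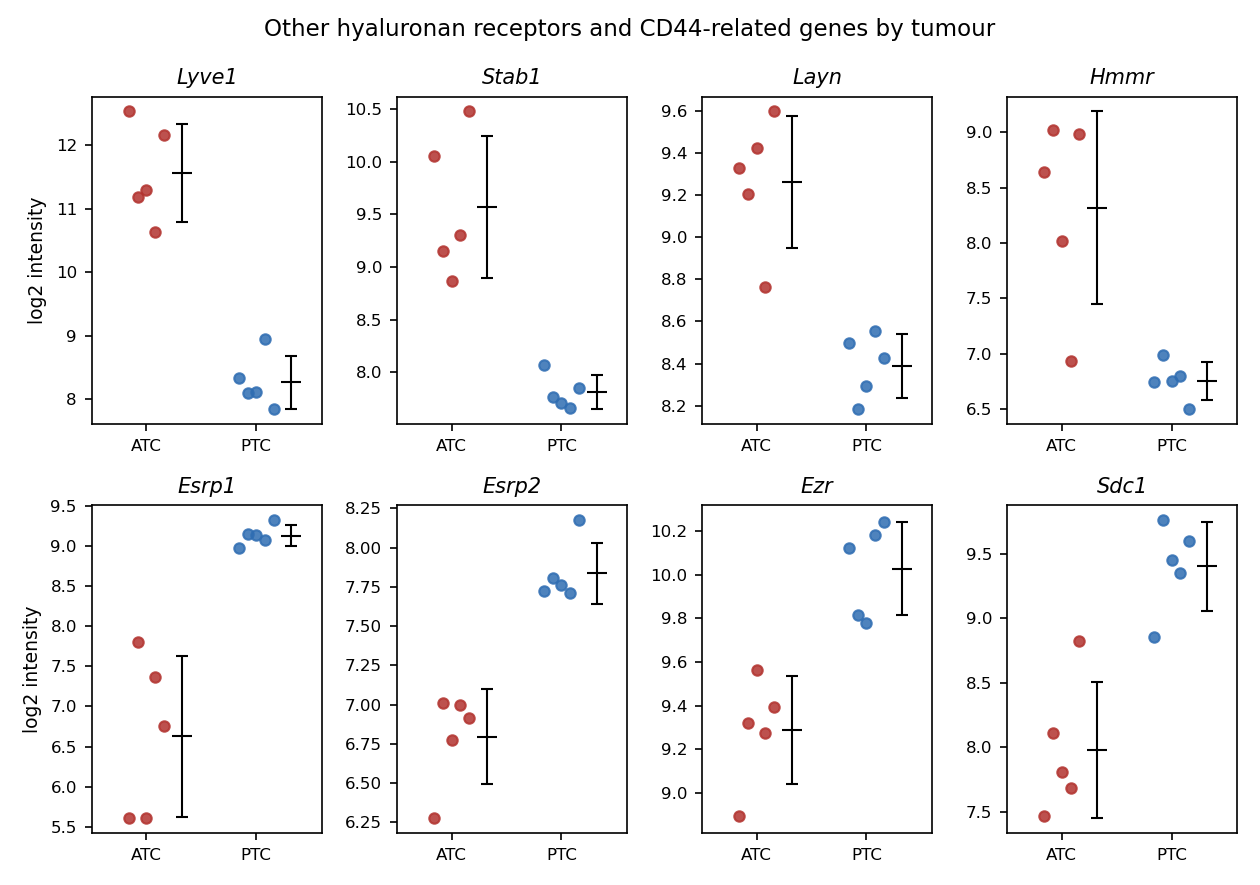
Log2 intensity of 4 other hyaluronan receptors (upper row) and 4 CD44-related genes (lower row) in each tumour, ATC left and PTC right in each panel. Points are tumours and black bars are mean ± SD (n = 5). The receptors lie higher in ATC, with 1 ATC tumour inside the PTC range for Hmmr, and the CD44-related genes lie lower in ATC without overlap. Vertical scales differ between panels and do not start at 0.

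Of 15 other genes that bind or assemble hyaluronan matrix, 3 fell, 0 rose and 12 did not pass, with a median of −0.078. Ptx3, a pentraxin that crosslinks hyaluronan through inter-alpha-inhibitor chains, read 7.53, 7.93, 8.01, 7.60 and 8.28 in ATC, against 8.57, 9.19, 8.49, 9.46 and 8.41 in PTC. The ATC tumours all lay below the PTC tumours (difference −0.96, SE 0.22, adjusted p = 0.00936 in limma). Of the inter-alpha-inhibitor heavy chain genes, Itih2 and Itih3 fell as well. Itih3 was 6.76 ± 0.17 in ATC and 7.30 ± 0.12 in PTC (adjusted p = 0.00217), and Itih2 was 6.59 ± 0.26 in ATC and 7.75 ± 0.83 in PTC (adjusted p = 0.0286). Itih2 stood at 8.61 and 8.71 in PTC replicates 1 and 4, the tumours with the highest muscle and parathyroid markers, against at most 7.25 in the other PTC. Its call ended without ATC replicate 1, 3 or 5 or PTC replicate 1 or 4 (−1.17 to −0.92, adjusted p 0.0524 to 0.0647). Without both PTC replicates 1 and 4 the difference was −0.56, and it passed (adjusted p = 0.0434 in limma). Hapln1, the link protein that locks versican to hyaluronan, differed by −0.065 (adjusted p = 0.740), and its mean was under the lower quartile of gene means.

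Of 17 genes for versican partners, versican-cleaving proteases and chondroitin sulfate synthesis, 2 rose, 2 fell and 13 did not pass, with a median of −0.01. Adamts5, a protease that cuts versican and aggrecan, fell by 1.70 to 7.61 ± 0.76 in ATC, against 9.31 ± 0.26 in PTC (adjusted p = 0.00273 in limma). Chsy1, a chondroitin sulfate synthase, rose by 0.68 (9.08 ± 0.14 in ATC and 8.39 ± 0.042 in PTC, adjusted p = 0.000246). The groups did not overlap for either gene. Adamts9 rose by 0.45 (adjusted p = 0.031) and Adamts15 fell by 0.27 (adjusted p = 0.0424), both versican-cleaving proteases. The Adamts9 call ended without ATC replicate 3 or 5 or PTC replicate 1, 2, 3 or 4 (0.38 to 0.44, adjusted p 0.0647 to 0.0773). The Adamts15 call ended without ATC replicate 1, 2, 3 or 5 or PTC replicate 1, 2 or 4 (−0.29 to −0.21, adjusted p 0.0524 to 0.0992).

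Of 18 genes for CD44 partners, shedding proteases and splicing regulators, 6 fell, 1 rose and 11 did not pass, with a median of −0.057. Esrp1 and Esrp2 encode epithelial splicing regulators that favour the variable exons of CD44. Esrp1 read 5.61, 7.80, 5.61, 7.36 and 6.76 in ATC, against 8.98, 9.15, 9.13, 9.07 and 9.32 in PTC, a difference of −2.50 (adjusted p = 0.00109 in limma). Its values in ATC replicates 1 and 3 lie under the lower quartile of gene means, 6.53, where differences may be compressed. Esrp2 fell by 1.04 (6.80 ± 0.30 in ATC and 7.84 ± 0.19 in PTC, adjusted p = 0.000694). Both were below all PTC tumours in every ATC tumour.

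Among the other calls of this list were genes of surface partners. Ezr encodes ezrin, which ties the CD44 tail to actin, and fell by 0.74 (9.29 ± 0.25 in ATC and 10.03 ± 0.21 in PTC, adjusted p = 0.00276 in limma). The related linkers radixin (Rdx) and moesin (Msn) differed by 0.22 (adjusted p = 0.096) and 0.093 (adjusted p = 0.494). Sdc1, a heparan sulfate proteoglycan of epithelial surfaces, fell by 1.42 (adjusted p = 0.00198), and Met, the growth factor receptor for which CD44 variants act as a co-receptor, fell by 1.05 (adjusted p = 0.0254). The Met call ended without ATC replicate 4 or PTC replicate 2 or 3 (adjusted p 0.0517 to 0.0614). The remaining 2 calls were on splicing regulator genes, both named after their values were seen. Rbm24 fell by 0.29 (6.89 ± 0.086 in ATC and 7.18 ± 0.085 in PTC, adjusted p = 0.0127), without overlap. Khdrbs1 rose by 0.28 (adjusted p = 0.0419), a call that ended without ATC replicate 1, 2 or 3 or PTC replicate 1, 2, 4 or 5 (0.24 to 0.30, adjusted p 0.0542 to 0.104). Mmp14, a membrane protease that sheds CD44, differed by 0.28 (adjusted p = 0.249). Of the 10 epithelial markers 8 fell as well. Among the ATC their list mean was highest in replicate 2 (9.47), as were Esrp1 (7.80) and Esrp2 (7.01). Ezr was highest in ATC replicate 3 (9.56) and Sdc1 in ATC replicate 5 (8.83). The part of epithelial cells in the falls of Esrp1, Esrp2, Ezr and Sdc1 was not tested.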

How the data were processed

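RNA was labelled with an Affymetrix whole-transcript sense target kit, per the labels' protocols. Affymetrix Power Tools and limma are listed by the submitters' processing notes without version; for normalization and genome build nothing was given in the sources used here. The deposited table of 35556 probe sets (values 2.79 to 14.15, array medians 7.25 to 7.34) was taken to hold normalized log2 intensities, judged by the range.

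Of the probe sets, 21789 had exactly 1 platform symbol, and the brightest was used for each of 19938 genes. Groups came from the sample titles. ATC minus PTC was fitted with limma 3.58.1 in R 4.3.3 without covariates. Pairs of genes were compared by exact two-sided permutation of within-tumour differences. Python 3.11.15, numpy 2.4.6, pandas 2.3.3, scipy 1.17.1 and matplotlib 3.10.9 did the rest. The fit was tested on simulated data. Promoters came from RefSeq. The genes, 6 pathway lists and 13 marker lists were chosen with earlier results of these data known. Named were the 7 genes, up to 5 called members per pathway list, 11 pathway genes in any case, and the 3 genes most like a called gene that differed by at least 0.5. Alternatives were a replicate block, averaged or single probe sets, a filter on dim genes, renormalization, other variance models, array weights and left-out arrays.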

Additional observations from a re-analysis of the deposited data

Results flagged for a closer look

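In 4 of 80 groups of 5 tumours (40 genes in 2 groups each), 1 tumour stood apart by Dixon's criterion at its 95% critical value of 0.71, and chance flags about 1 in 20 groups. ATC replicate 5 stood above the other ATC tumours in Cemip2 (9.91, against 8.64 to 9.01) and in Mmp14 (10.57, against 9.67 to 9.81). PTC replicate 5 stood above the other PTC tumours in Esrp2, at 8.18, and PTC replicate 4 in Hapln1, at 5.79. None of these tumours stood apart in Has1, Has2, Has3, Cd44, Hyal2, Vcan or Tnfaip6.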

How the results depend on the processing

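Cd44 passed and stayed lower in ATC under all alternatives (differences −0.69 to −0.60 in fits not leaving out a single array). With a replicate block 3762 genes passed in place of 4234, and Cd44 kept its call (adjusted p = 0.00816 in limma). Gnpnat1 (0.38, adjusted p = 0.054) and Adamts15 (−0.27, adjusted p = 0.105) lost theirs. The labels do not say whether equal numbers pair the tumours. Correlations of same-numbered tumours' deviations ran from −0.086 to 0.12, which cannot settle whether they share a litter or day. The differences of uncalled genes near 0 changed sign. With quantile normalization once more Has3 was 0.053 and Hyal2 −0.0038, with arrays centred on their medians Has1 was 0.0063 and Has3 0.023, and with array weights Hyal2 was −0.0087 and Tnfaip6 −0.028. Without PTC replicates 1 and 4 Has1 was 0.014 and Has3 0.028, and 2379 genes passed, with fewer samples. Leaving out 1 array gave −0.089 to 0.025 for Has1, −0.49 to −0.042 for Has2, −0.057 to 0.031 for Has3, −0.055 to 0.045 for Hyal2, −0.070 to 0.37 for Tnfaip6, 0.51 to 0.93 for Vcan, −0.22 to 0.016 for Cemip and −0.14 to 0.019 for Hapln1, with 1 to 2 of the 7 genes and 19 to 24 of the 77 pathway genes passing. After quantile normalization of all arrays the Cd44 and Vcan pair was −1.34 (adjusted p = 0.0952 in the exact test). With 1 array left out it ran from −1.64 to −1.08, with adjusted p = 0.0952 throughout. The pair of Has3 and Has2 ran from −0.015 to 0.50 and that of Has3 and Has1 from −0.082 to 0.093. Has3 was not fitted with dim genes left out, since it is among them. Of 626 refits of the 33 named genes outside the 7, 71 ended a call, 1 began one and 2 changed a sign. The 33 include Syne4, Gja5 and Anxa3, which were chosen for likeness to Cd44 and are not in the pathway lists. Where no single array was left out, the named calls that ended were those of Gfpt1, Slc35d1, Gnpnat1, Gusb, Adamts9, Adamts15, Met, Khdrbs1 and Rbm24. Depth could not be judged, as no detection calls are given.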
